A study of Mus musculus with 12 samples.

Results

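The genes described here are 10 immediate early transcription factor genes, namely the EGR genes Egr1, Egr2 and Egr3, the Fos family genes Fos, Fosb, Fosl1 and Fosl2, and the Jun family genes Jun, Junb and Jund. They were taken by gene symbol from the 46262 genes of the deposited table, and the values of all transcripts of a gene were summed. The cells were wild-type (WT) primary mouse microglia, which are the brain's resident macrophages, isolated from mixed glial cultures and exposed for 24 hours to 1 of 2 cytokines, IL-34 or CSF-1, that both bind the receptor encoded by Csf1r. The 4 groups were cerebellar microglia with IL-34 at 100 ng/ml, cerebellar microglia with CSF-1 at 20 ng/ml, forebrain microglia with IL-34 at 100 ng/ml and forebrain microglia with CSF-1 at 20 ng/ml, each with 3 libraries. The design text calls the cultures of a group independent, and the deposited table calls the microglia neonatal, while the labels give no age. All groups received a ligand, so the values compare the ligands with each other at these doses and not with untreated cells. The cells had also left the brain and grown beside other glia before they were exposed.

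Immediate early genes as a class are transcribed within minutes of a signal, without new protein synthesis, and most of their mRNAs decay quickly. Receptor tyrosine kinases such as the CSF-1 receptor reach them through the RAS and ERK kinases, which phosphorylate ternary complex factors bound with serum response factor at a promoter element named the CArG box. Fos and Jun proteins pair through leucine zippers to form AP-1. EGR proteins bind GC-rich sites through zinc fingers, and in macrophages they take part in the response to CSF-1. A sample taken at 24 hours is too late for the first wave after the ligand was added. Without untreated cells or other times, whether a level had been sustained since then cannot be told. Whether each member follows the time course of the class was likewise not tested.

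To show the regulatory element through which such genes are induced, the promoter windows of 2 members are given from RefSeq (GRCm38.p6, plus strand, 250 bases before to 50 after a start site), in which capitals mark a CArG box. They were picked after the motif search, as 1 window with such a box and 1 without, from the windows set on the start of the transcript that held most of the gene's TPM (Egr2-201, Fos-201 and, not shown, Jun-201).
Egr2, chr10:67537619-67537918: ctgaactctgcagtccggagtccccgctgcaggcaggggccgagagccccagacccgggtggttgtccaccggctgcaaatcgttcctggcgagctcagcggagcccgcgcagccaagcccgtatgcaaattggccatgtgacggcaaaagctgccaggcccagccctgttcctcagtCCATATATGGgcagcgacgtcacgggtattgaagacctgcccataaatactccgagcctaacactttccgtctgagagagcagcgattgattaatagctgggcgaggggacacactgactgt
Fos, chr12:85473640-85473939: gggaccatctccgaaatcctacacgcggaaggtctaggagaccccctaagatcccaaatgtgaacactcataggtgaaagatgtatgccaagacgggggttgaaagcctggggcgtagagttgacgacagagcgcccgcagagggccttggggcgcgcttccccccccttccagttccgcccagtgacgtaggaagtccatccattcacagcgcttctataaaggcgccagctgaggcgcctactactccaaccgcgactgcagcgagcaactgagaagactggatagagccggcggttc
The Egr2 window held a CArG box whose first base lies at -72 from the start, and 1.63% of 32851 RefSeq promoter windows of this length held one on either strand. No CArG box was matched in the Fos window. Bases more than 250 before the start were not searched, so a box further upstream could not be found. Also searched on both strands were the AP-1 site TGACTCA (in 5.20% of all windows), the cyclic AMP response element TGACGTCA (1.79%), the ETS motif CCGGAA (14.9%) and the EGR site GCGTGGGCG (0.612%). None of these 4 exact sequences was in either window. RefSeq windows were matched for Jun, Junb, Jund, Fosb, Fosl2, Fos and Egr2. The windows of the first 6 of these genes held no exact match to any of the 5 motifs. Variants that differ from a motif by a base were not searched. The windows can therefore hold sites of these kinds that were not found. Those of Jund and Fosl2 did not include the start of the main transcript (Jund-201 at 70698949 and Fosl2-201 at 32135801). The promoters of these transcripts were thus not searched. Of the 5 Egr2 windows, which partly overlap, 4 held a CArG box.

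Values are TPM, a transcript's share of its library after division by length, with a sum of 1000000 in each library, and read depth cannot be recovered from them. From 11740 to 11904 genes per library reached 1 TPM. The 10 microglia markers examined, among them Csf1r, Cx3cr1 and P2ry12, were all detected and summed to between 6913 and 7484 TPM over the 12 libraries. Of the other cell types a mixed glial culture can hold, the 6 astrocyte markers summed to 10.8 to 12.1 TPM in cerebellum with IL-34, 11.8 to 13.96 in cerebellum with CSF-1, 19.0 to 22.9 in forebrain with IL-34 and 20.6 to 21.2 in forebrain with CSF-1. The 7 oligodendrocyte lineage markers summed to 71.9 to 78.5, 88.2 to 96.7, 55.8 to 61.9 and 56.9 to 69.6 TPM in the same order of groups. Fibroblast and mural, endothelial and neuron markers each summed to at most 12.02 TPM in any library, and the endothelial marker Cldn5 was listed at 0 in all 12. In the libraries of cerebellum with IL-34, 0.947 to 3.31% of all TPM lay in transcripts shorter than 600 nt, against 0.0269 to 0.555% in the other 9.

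Per length, the AP-1 genes Junb and Fos were the most abundant members, and the 4 most abundant varied less over the libraries than the other 4 tested. Mean TPM over the 12 libraries fell in the order Junb (301), Fos (253), Jund (173), Jun (85.1), Egr1 (48.4), Fosl2 (13.8), Egr2 (8.15), Fosl1 (6.23), Fosb (0.235) and Egr3 (0.0877). The ranges over libraries did not overlap between Fos and Jund, between Jund and Jun, between Egr1 and Fosl2 or between Fosl1 and Fosb, and they overlapped between the other neighbours in that order. The coefficient of variation over the 12 libraries was 4.03% for Junb, 5.13% for Jund, 8.43% for Fos and 8.95% for Jun, against 13.8% for Fosl2, 37.3% for Fosl1, 37.7% for Egr2 and 37.9% for Egr1. Fosb and Egr3 did not reach 1 TPM in any library and were not tested, which left 8 of the 10 members in the fit across 12419 genes.

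**Figure D1:**
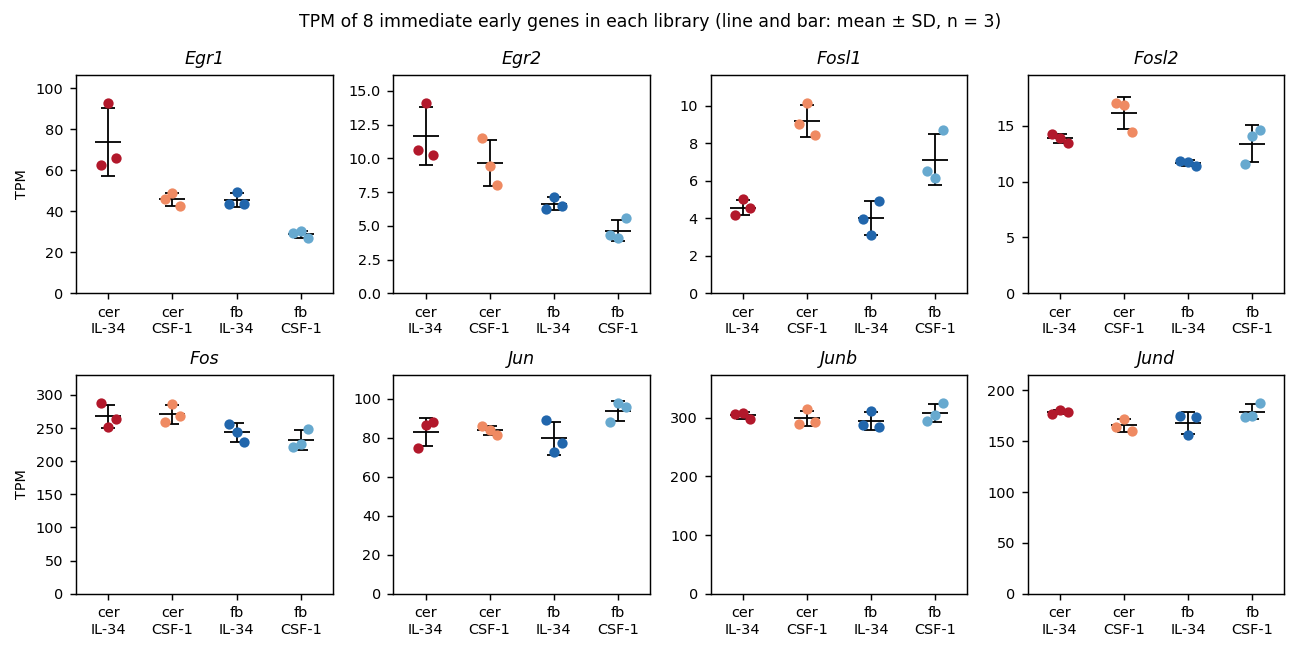
TPM (vertical axis, from 0, with its own scale in each panel) of the 8 members that passed the filter, in cerebellum (cer) and forebrain (fb) with IL-34 or CSF-1. Each dot is 1 library, and the line and bar are the mean ± SD of 3. Egr1 lay between 62.6 and 92.7 TPM in cerebellum with IL-34 and between 27.0 and 30.2 TPM in forebrain with CSF-1, while Junb stayed between 285 and 324 TPM throughout.

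The first question the design poses is whether the 2 ligands leave these genes at different levels. With IL-34, Egr1 was higher and Fosl1 lower than with CSF-1, and the abundant genes Fos, Jun, Junb and Jund did not pass the test in either region, although Jund in cerebellum passed it under median-of-ratios scaling. In cerebellum 2 of the 8 tested members were called by limma at an adjusted p under 0.05, Egr1 higher and Fosl1 lower with IL-34, where 12.8% of all genes tested were called (3% higher and 9.82% lower). In forebrain 1 member was called, Egr1, where 1.2% of all genes were called (0.427% higher and 0.773% lower). For the mean of both regions the 2 called members were again Egr1 and Fosl1, against 13.4% of all genes (2.73% higher and 10.7% lower). Over all genes this balance depended on the scaling: with median-of-ratios scaling 5.72% were higher and 3.89% lower in cerebellum, 1.12% and 0.919% in forebrain and 5.74% and 4.96% for the mean. That scaling moved the median log2 fold change of all genes in cerebellum to 0.0032, against -0.10 as reported, and relative to these medians Egr1 (0.77 under it) and Fosl1 (-0.77) stood apart in both. With quantile normalization 3.63% were higher and 5.83% lower in cerebellum, 0.701% and 0.628% in forebrain and 3.82% and 5.92% for the mean. No overlap between the libraries of the 2 ligands was seen for 4 of 8 members in cerebellum (Egr1 and Jund higher, Fosl1 and Fosl2 lower), where 36.2% of all genes did not overlap (8.21% higher and 27.9% lower). In forebrain this held for 3 of 8 (Egr1 and Egr2 higher, Fosl1 lower), where 18.5% of all genes did not overlap (5.9% higher and 12.6% lower). The median log2 fold change of the 8 members was -0.004 for the mean of both regions, and that of all genes was -0.07.

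**Figure D2:**
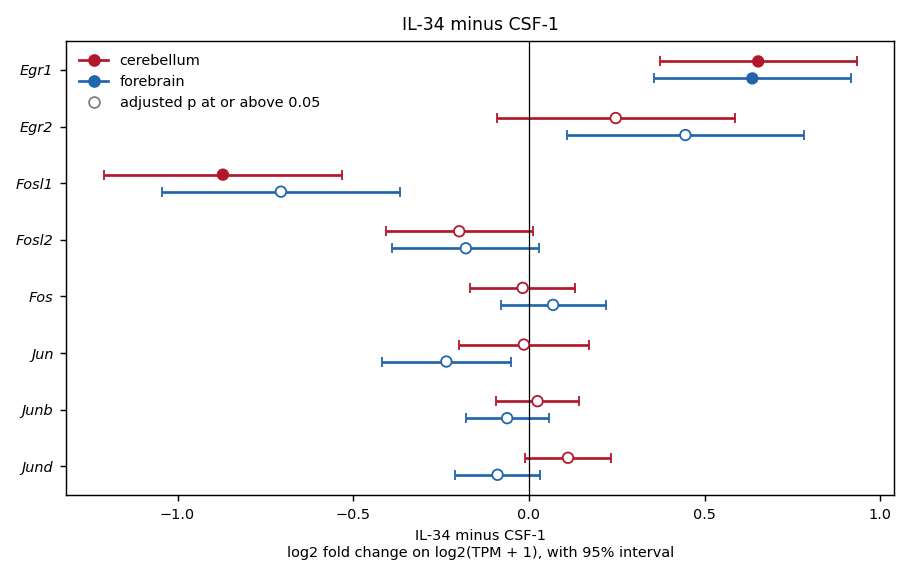
Log2 fold change of IL-34 over CSF-1 (horizontal axis, on the log2(TPM + 1) scale) for each tested member in cerebellum (red) and forebrain (blue). Bars are 95% intervals from limma, not adjusted for the number of genes, and filled points had an adjusted p under 0.05. Egr1 lies to the right in both regions at 0.65 and 0.64, and Fosl1 lies to the left at -0.87 in cerebellum and -0.71 in forebrain, where it is not filled.

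The second question is whether microglia of the 2 regions hold these genes at different levels. Egr1 and Egr2 were higher in cerebellar than in forebrain microglia with either ligand. With IL-34, 2 of 8 members were called, where 13.5% of all genes were (5.27% higher and 8.22% lower), and with CSF-1 the same 2 of 8, where 6.71% of all genes were (3.29% higher and 3.42% lower). For the mean of both ligands 4 of 8 were called, all higher in cerebellum, namely Egr1, Egr2, Fos and Fosl2, where 20.1% of all genes were called (9.58% higher and 10.6% lower). Only with length and GC trends removed was Jund called lower in cerebellum for that mean (-0.11, adjusted p = 0.0280). As reported it was -0.01 (adjusted p = 0.879). In that setting alone, Jun (-0.23, adjusted p = 0.0173) and Jund (-0.20, adjusted p = 0.0129) were also called lower with CSF-1. As reported these were -0.16 (adjusted p = 0.286) and -0.11 (adjusted p = 0.258). The libraries of the regions did not overlap for 4 of 8 members with IL-34, all higher in cerebellum (Egr1, Egr2, Fosl2 and Jund), against 32.9% of all genes (14.1% higher and 18.9% lower). With CSF-1 they did not overlap for 5 of 8 (Egr1, Egr2 and Fos higher, Jun and Jund lower in cerebellum), against 29.4% of all genes (17.2% higher and 12.2% lower). The median log2 fold change of the 8 members was 0.21 for the mean of both ligands, and that of all genes was 0.01. The ligand and the region comparisons use the same 12 libraries.

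**Figure D3:**
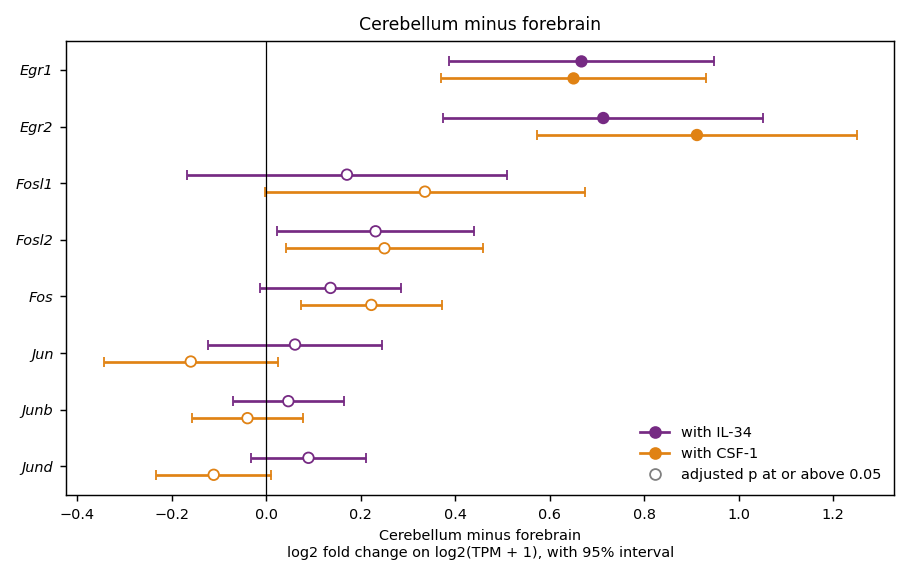
Log2 fold change of cerebellum over forebrain (horizontal axis, on the log2(TPM + 1) scale) for each tested member with IL-34 (purple) and with CSF-1 (orange). Bars are 95% intervals from limma, not adjusted for the number of genes, and filled points had an adjusted p under 0.05. Egr1 and Egr2 are the filled members with both ligands, Egr2 at 0.71 with IL-34 and 0.91 with CSF-1.

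The third question is whether the ligand difference depends on the region. None of the 8 members was called for the ligand-by-region interaction by limma, where 0.145% of all genes were called, and 1 of the 8, Jund, had an unadjusted p under 0.05. The interaction of Jund was 0.20 (95% interval 0.03 to 0.37, adjusted p = 0.357). For Egr1 the ligand difference in cerebellum exceeded that in forebrain by 0.02 on the log2 scale (95% interval -0.38 to 0.41), for Fosl1 by -0.17 (-0.64 to 0.31) and for Egr2 by -0.20 (-0.68 to 0.28). These intervals are wide beside the ligand differences themselves.

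Egr1 encodes the zinc-finger factor EGR1 and lies on chromosome 18 (34859823 to 34864984, GRCm38, plus strand). It had 62.6, 92.7 and 65.8 TPM in cerebellum with IL-34 and 45.8, 49.0 and 42.8 TPM in cerebellum with CSF-1. Forebrain libraries had 43.5, 49.3 and 43.3 TPM with IL-34 and 29.3, 30.2 and 27.0 TPM with CSF-1. The ligands did not overlap in either region, and cerebellum with CSF-1 and forebrain with IL-34 covered nearly the same range. Replicate 2 of cerebellum with IL-34 stood above its group. The log2 fold change of IL-34 over CSF-1 was 0.65 (SE 0.13, adjusted p = 0.0122) in cerebellum and 0.64 (SE 0.13, adjusted p = 0.0400) in forebrain. That of cerebellum over forebrain was 0.67 (SE 0.13, adjusted p = 0.00660) with IL-34 and 0.65 (SE 0.13, adjusted p = 0.0122) with CSF-1. In such bulk samples more RNA per cell and more cells of a type cannot be told apart.

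The call in forebrain was the least secure of these. It was lost in 9 of the 12 fits that left out 1 library, that is without any 1 of the 3 libraries of cerebellum with CSF-1 (adjusted p from 0.0584 to 0.0626), of forebrain with IL-34 (0.0634 to 0.187) or of forebrain with CSF-1 (0.0865 to 0.131), with log2 fold changes between 0.58 and 0.67. In cerebellum the call held in all 12 and was lost with only the groups compared in the fit (adjusted p = 0.0529), and without replicate 2 of cerebellum with IL-34 the log2 fold change was 0.48. The region difference with CSF-1 missed the threshold without replicate 2 of cerebellum with CSF-1 (0.60, adjusted p = 0.0559).

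Most of the Egr1 value came from 1 transcript. Egr1-202 held 90.3% of it and averaged 68.0 ± 16.3 TPM in cerebellum under IL-34, 40.9 ± 2.77 in cerebellum under CSF-1, 40.4 ± 2.46 in forebrain under IL-34 and 25.7 ± 1.95 in forebrain under CSF-1 (SD, n = 3 each). The longer Egr1-201 averaged 5.68 ± 1.34, 4.96 ± 0.329, 4.97 ± 1.06 and 3.15 ± 0.396 TPM in the same order. Both were thus lowest in forebrain with CSF-1.

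Egr2 encodes EGR2, also called Krox20, and lies on chromosome 10 (67535475 to 67542188, plus strand). Its libraries had 10.6, 14.1 and 10.2 TPM in cerebellum with IL-34 and 11.5, 9.43 and 8.06 TPM in cerebellum with CSF-1. In forebrain they had 6.29, 7.18 and 6.50 TPM with IL-34 and 4.31, 4.08 and 5.57 TPM with CSF-1. Every cerebellar library was above every forebrain library, and the ligands overlapped in cerebellum and not in forebrain. Cerebellum over forebrain gave a log2 fold change of 0.71 with IL-34 (SE 0.15, adjusted p = 0.0124) and 0.91 with CSF-1 (SE 0.15, adjusted p = 0.00533). IL-34 over CSF-1 gave 0.25 (SE 0.15, adjusted p = 0.302) in cerebellum and 0.45 (SE 0.15, adjusted p = 0.207) in forebrain, neither past the test, and 0.35 (SE 0.11, adjusted p = 0.0578) for the mean of both. That mean passed the test in 6 of 14 other settings, among them median-of-ratios scaling (0.42, adjusted p = 0.0331) and quantile normalization (0.40, adjusted p = 0.0443).

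Egr2 lost its region call with IL-34 when replicate 2 of that cerebellar group was left out (0.58, adjusted p = 0.0531). Its main transcript, Egr2-201, whose promoter window is shown above, held 87.1% of the gene's TPM. In replicate 2 of cerebellum with CSF-1 the deposited values were 4.15 TPM for Egr2-201 and 4.15 TPM for Egr2-202, whose start is 1 base away. With the most abundant transcript of each gene in place of the sum, the region difference of Egr2 was 0.85 with IL-34 (adjusted p = 0.0510) and 0.70 with CSF-1 (adjusted p = 0.142).

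Egr3, which encodes a further zinc-finger factor of the family, lay between 0 and 0.210 TPM and was listed at 0 in 4 libraries. The 3 genes summed to 85.5 ± 18.7 TPM in cerebellum under IL-34, 55.5 ± 4.02 in cerebellum under CSF-1, 52.1 ± 3.86 in forebrain under IL-34 and 33.6 ± 0.833 in forebrain under CSF-1 (SD, n = 3 each), and Egr1 made up between 79.9 and 87.9% of that sum.

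Beside the region differences of Egr1 and Egr2, 4 of the 5 tested astrocyte markers were lower in cerebellum for the mean of both ligands (Gfap -0.78, Gja1 -0.78, Aldh1l1 -0.56 and Aqp4 -0.45). Of all genes 9.58% were called higher and 10.6% lower in this contrast. Of the 4 oligodendrocyte lineage markers tested, 2 were higher, among them Mbp (0.69), and 1 was lower, Olig1 (-0.87). Of the 2 fibroblast and mural markers tested Acta2 was lower (-1.37), and of the 2 endothelial markers Flt1 was higher (0.56). Of the 10 microglia markers Tmem119 was higher (1.01) and P2ry12 lower (-0.34), and 8 were not called. Of the 6 border macrophage and monocyte markers 2 were tested. Mrc1 was lower (-0.39), and Pf4 did not pass the test at 2.21 (SE 1.31, adjusted p = 0.265). The list summed to 107 to 156 TPM in cerebellum with IL-34, 31.4 to 114 in cerebellum with CSF-1, 39.0 to 80.0 in forebrain with IL-34 and 37.5 to 84.3 in forebrain with CSF-1. The part of these markers in the EGR differences was not tested.

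Fosl1 encodes FRA-1, a Fos family protein without the strong activation domain of FOS, and lies on chromosome 19 (5447547 to 5455946, plus strand). It had 4.19, 5.01 and 4.54 TPM in cerebellum with IL-34 and 9.01, 10.2 and 8.46 TPM in cerebellum with CSF-1. In forebrain it had 3.97, 3.12 and 4.92 TPM with IL-34 and 6.54, 6.18 and 8.71 TPM with CSF-1. All 6 IL-34 libraries were below all 6 CSF-1 libraries. The log2 fold change of IL-34 over CSF-1 was -0.87 (SE 0.15, adjusted p = 0.00853) in cerebellum, and this call held in all 12 fits without 1 library. In forebrain it was -0.71 (SE 0.15, adjusted p = 0.0583), just short of the threshold. The mean of both regions was -0.79 (SE 0.11, adjusted p = 0.00153). Cerebellum over forebrain gave 0.17 with IL-34 (adjusted p = 0.497) and 0.34 with CSF-1 (adjusted p = 0.222).

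Fosl2 encodes the related FRA-2. It had 14.2, 13.9 and 13.4 TPM in cerebellum with IL-34 and 17.0, 16.8 and 14.4 TPM in cerebellum with CSF-1. It had 11.9, 11.8 and 11.4 TPM in forebrain with IL-34 and 11.5, 14.04 and 14.6 TPM in forebrain with CSF-1. The cerebellar ligand groups did not overlap and the forebrain ones did, and the ligand difference did not pass the test in either region (-0.20 in cerebellum, adjusted p = 0.183, and -0.18 in forebrain, adjusted p = 0.441). With length and GC trends removed these values were 0.00023 in cerebellum and -0.089 in forebrain. The mean region difference was 0.24 (SE 0.07, adjusted p = 0.0277). That call was lost in 7 of the 12 fits without 1 library, namely those without replicate 1 or 2 of either cerebellar group, replicate 1 of forebrain with CSF-1, or replicate 2 or 3 of forebrain with IL-34 (0.19 to 0.24, adjusted p from 0.0513 to 0.0685).

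Fos, the founding member, had 287, 252 and 263 TPM in cerebellum with IL-34 and 259, 286 and 268 TPM in cerebellum with CSF-1. Of the 287 TPM, 248 came from the main transcript Fos-201, and of the 286 TPM, 261. The rest lay in processed transcripts. Forebrain libraries had 257, 244 and 229 TPM with IL-34 and 221, 226 and 249 TPM with CSF-1. The ligands overlapped in both regions, with log2 fold changes of -0.02 (95% interval -0.17 to 0.13) in cerebellum and 0.07 (-0.08 to 0.22) in forebrain. The cerebellar value turned to 0.10 under median-of-ratios scaling and to 0.02 under quantile normalization. The mean region difference was 0.18 (SE 0.05, adjusted p = 0.0233). It was lost in 4 of the 12 fits without 1 library, namely without replicate 1 of cerebellum with IL-34, replicate 2 of cerebellum with CSF-1, replicate 3 of forebrain with IL-34 or replicate 1 of forebrain with CSF-1 (0.15 to 0.16, adjusted p from 0.0522 to 0.0607). Fosb lay between 0.0870 and 0.480 TPM, with overlap between all groups.

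Within the summed TPM of the Fos family, Fos held between 90.8 and 94.2% in every library. The share of Fosl1 was 1.61 ± 0.240% in cerebellum under IL-34, 3.10 ± 0.176% in cerebellum under CSF-1, 1.55 ± 0.410% in forebrain under IL-34 and 2.81 ± 0.353% in forebrain under CSF-1 (SD, n = 3 each). That of Fosl2 was 4.85 ± 0.251, 5.43 ± 0.510, 4.50 ± 0.141 and 5.29 ± 0.444% in the same order. The Fosl1 difference thus concerned a small part of the family's mRNA.

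**Figure D4:**
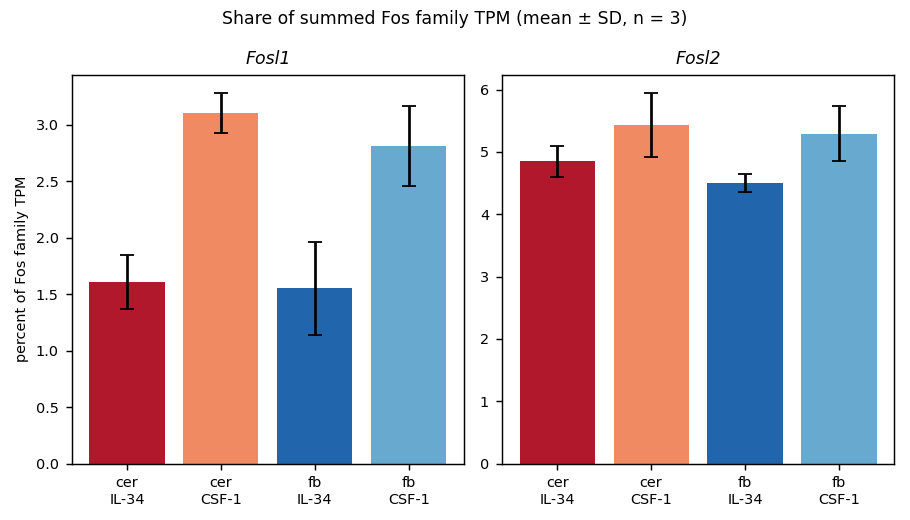
Percent of the summed TPM of Fos, Fosb, Fosl1 and Fosl2 (vertical axis, from 0) held by Fosl1 and by Fosl2 in cerebellum (cer) and forebrain (fb) with each ligand. Bars are means and error bars SD of 3 libraries. Fosl1 held 1.61 and 1.55% with IL-34, against 3.10 and 2.81% with CSF-1.

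The Jun family genes encode the partners that FOS proteins need, and they can also pair with each other. Jun had 74.8, 86.6 and 87.9 TPM in cerebellum with IL-34 and 86.0, 84.0 and 81.2 TPM in cerebellum with CSF-1. It had 89.0, 72.7 and 77.4 TPM in forebrain with IL-34 and 87.9, 97.6 and 95.7 TPM in forebrain with CSF-1. The ligands overlapped in both regions. The forebrain ligand difference of -0.23 (95% interval -0.42 to -0.05) did not pass the adjusted test (adjusted p = 0.216), and the cerebellar one was -0.01 (-0.20 to 0.17), turning to 0.10 under median-of-ratios scaling and to 0.01 under quantile normalization.

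Junb, often described as a weaker activator than Jun, had 307, 308 and 298 TPM in cerebellum with IL-34 and 290, 314 and 293 TPM in cerebellum with CSF-1. In forebrain it had 287, 312 and 285 TPM with IL-34 and 294, 304 and 324 TPM with CSF-1. All groups overlapped. Its ligand differences were 0.02 (95% interval -0.09 to 0.14) in cerebellum and -0.06 (-0.18 to 0.06) in forebrain, and its region differences 0.05 (-0.07 to 0.16) with IL-34 and -0.04 (-0.16 to 0.08) with CSF-1.

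Jund, the Jun family gene least dependent on a stimulus in many cell types, had 177, 180 and 179 TPM in cerebellum with IL-34 and 164, 172 and 160 TPM in cerebellum with CSF-1. In forebrain it had 175, 156 and 174 TPM with IL-34 and 174, 175 and 187 TPM with CSF-1. The cerebellar ligand groups did not overlap, yet the difference of 0.11 (SE 0.06, adjusted p = 0.196) did not pass the test. It passed under median-of-ratios scaling (0.23, adjusted p = 0.0174) and with length and GC trends removed (0.17, adjusted p = 0.0331), and in none of the other 13 settings. The forebrain difference was -0.09 (SE 0.06, adjusted p = 0.524). Junb held 52.1 to 57.7%, Jund 28.8 to 32.5% and Jun 13.4 to 16.9% of the Jun family TPM.

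By Pearson's r over the 12 libraries on log2(TPM + 1), among 8801 genes with a mean of at least 5 TPM, the genes most like Egr1 were the transcription factor gene Bhlhe40 (r = 0.962) and Creg1 (0.958). Bhlhe40 averaged 31.3 ± 2.98 TPM in cerebellum under IL-34, 25.0 ± 2.14 in cerebellum under CSF-1, 25.5 ± 1.21 in forebrain under IL-34 and 21.8 ± 0.792 in forebrain under CSF-1 (SD, n = 3 each). Most like Egr2 were Cytip (0.962) and Thbs1 (0.938), the gene of thrombospondin-1, and Cytip averaged 38.8 ± 5.11, 32.0 ± 5.23, 19.5 ± 2.75 and 16.3 ± 2.48 TPM in the same order. Most like Fosl1 were Slc35a4 (0.955) and Pla2g4a (0.951), the gene of a cytosolic phospholipase, which averaged 69.2 ± 5.53, 98.2 ± 4.57, 65.6 ± 3.99 and 89.0 ± 3.60 TPM. For the other members these were Mfhas1 and Dok3 for Fosl2 (0.958 and 0.951), Mgat4b and Nfkb2 for Fos (0.958 and 0.927), Rab5b and Kctd20 for Jun (0.966 and 0.947), Mtif3 and Slc20a1 for Junb (0.831 and 0.811) and Ubqln2 and Edc3 for Jund (0.831 and 0.809). The 12 libraries share group means, and these values are a description of the highest among many genes.

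The wider early response did not move as a block with the ligand. Of 32 other early response genes 30 were tested, and for the mean of both regions 3 rose and 9 fell with IL-34, with a median log2 fold change of -0.04 against -0.07 for all genes. Of all genes 2.73% rose and 10.7% fell in this contrast, and 9.58% rose and 10.6% fell for the mean region difference, shares that also stand beside the counts of the lists that follow. Under median-of-ratios scaling and under quantile normalization 7 rose and 5 fell. Those with the smallest p were Myc (-0.52), a growth regulator, the Krüppel-like factor Klf2 (-0.52), the antiproliferative Btg1 (0.29), the mRNA decay factor Zfp36l2 (-0.20) and the stress-induced bZIP gene Atf3 (0.23). Myc averaged 56.4 ± 1.12 TPM in cerebellum under IL-34, 83.8 ± 3.25 in cerebellum under CSF-1, 57.5 ± 2.82 in forebrain under IL-34 and 80.4 ± 4.97 in forebrain under CSF-1 (SD, n = 3 each), a difference in the direction of Fosl1 and not of Egr1. For the mean region difference 4 rose and 5 fell in cerebellum (median -0.03 against 0.01 for all genes), led by Klf2 (-0.51), the mRNA decay factor Zfp36 (0.25), the small GTPase gene Rhob (-0.32), Maff (0.43) and the nuclear receptor gene Nr4a1 (0.37).

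Upstream of these genes, 22 kinases and transcription factors of the ERK, JNK, p38 and serum response factor routes were tested. With IL-34 none rose and 6 fell for the mean of both regions (median -0.13 against -0.07), namely Mef2a (-0.30), the JNK gene Mapk9 (-0.34), the RSK kinases Rps6ka1 (-0.21) and Rps6ka3 (-0.37), the MEK gene Map2k2 (-0.18) and Srf (-0.24), the gene of serum response factor. Under median-of-ratios scaling 1 rose and 3 fell, and under quantile normalization none rose and 3 fell. In cerebellum 1 was higher for the mean of both ligands, the transcription factor Mef2c (0.51), and none was lower (median 0.06 against 0.01). With median-of-ratios scaling 4 were higher and 1 lower, where 11.1% of all genes were higher and 12% lower. Quantile normalization gave 1 higher and none lower, where 9.13% of all genes were higher and 12% lower.

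Among the 14 other AP-1 and bZIP partners tested, 1 rose with IL-34 (Atf3, which also stands in the early response list) and 4 fell (Maf -0.30, Jdp2 -0.28, Mafg -0.17 and Maff -0.30), with a median of -0.01 against -0.07. With median-of-ratios scaling 3 rose and 1 fell, and with quantile normalization 2 rose and 1 fell. In cerebellum 4 were higher (among them Mafg 0.28, Maff 0.43 and Atf3 0.17) and 1 lower (Maf -0.35), with a median of 0.13 against 0.01. Of the EGR cofactors and relatives Nab1, Nab2, Egr4 and Wt1, only the corepressor genes Nab1 and Nab2 were abundant enough to test. Nab2, itself a target of EGR1, averaged 60.1 ± 6.83 TPM in cerebellum under IL-34, 57.4 ± 2.94 in cerebellum under CSF-1, 49.1 ± 3.71 in forebrain under IL-34 and 46.5 ± 3.38 in forebrain under CSF-1 (SD, n = 3 each). Its mean region difference was 0.29 (adjusted p = 0.00925) and its mean ligand difference 0.07 (adjusted p = 0.501). Nab1 fell with IL-34 in cerebellum (-0.19, adjusted p = 0.0417), a call not made under median-of-ratios scaling or quantile normalization, and its mean ligand difference of -0.11 did not pass the test (adjusted p = 0.0833).

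Of 18 known AP-1 target genes, all tested, 2 rose and 8 fell with IL-34 for the mean of both regions, with a median of -0.18 against -0.07 for all genes. With median-of-ratios scaling 3 rose and 6 fell, and with quantile normalization 3 rose and 7 fell. By the smallest p these were Ccl2 (-0.91), a monocyte chemokine, the urokinase gene Plau (-0.89), the cyclin gene Ccnd1 (-1.07), Ptgs2 (-0.57), which encodes cyclooxygenase-2, and the urokinase receptor gene Plaur (-0.50). Between regions the list went both ways, with 4 higher and 5 lower in cerebellum (median -0.08 against 0.01), among them Ptgs2 (0.72), Spp1 (0.50) and Mmp14 (0.61) higher and Ccl2 (-1.18) and Mmp9 (-1.31) lower. With median-of-ratios scaling 5 were higher and 5 lower, where 11.1% of all genes were higher and 12% lower. With quantile normalization 3 were higher and 5 lower, where 9.13% of all genes were higher and 12% lower. Under it the difference of Spp1 with IL-34 alone changed sign.

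Genes of the heat shock response are induced by handling stress, as several early genes are. Of 11 tested, none rose and 6 fell with IL-34 for the mean of both regions (median -0.22 against -0.07), among them Hspa8 (-0.26), Hsp90ab1 (-0.30) and Hsph1 (-0.23), and 3 fell under median-of-ratios scaling and 4 under quantile normalization. Their summed level was 2915 to 3235 TPM in cerebellum with IL-34, 3644 to 3776 in cerebellum with CSF-1, 3030 to 3273 in forebrain with IL-34 and 3506 to 3733 in forebrain with CSF-1. In forebrain alone 1 of the 11 fell with IL-34, where 0.773% of all genes fell, and in cerebellum 5, where 9.82% fell. Between regions 1 of the 11, Dnaja1 (-0.19), was called. The part of these genes in the ligand differences of Egr1 and Fosl1 was not tested.

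**Figure D5:**
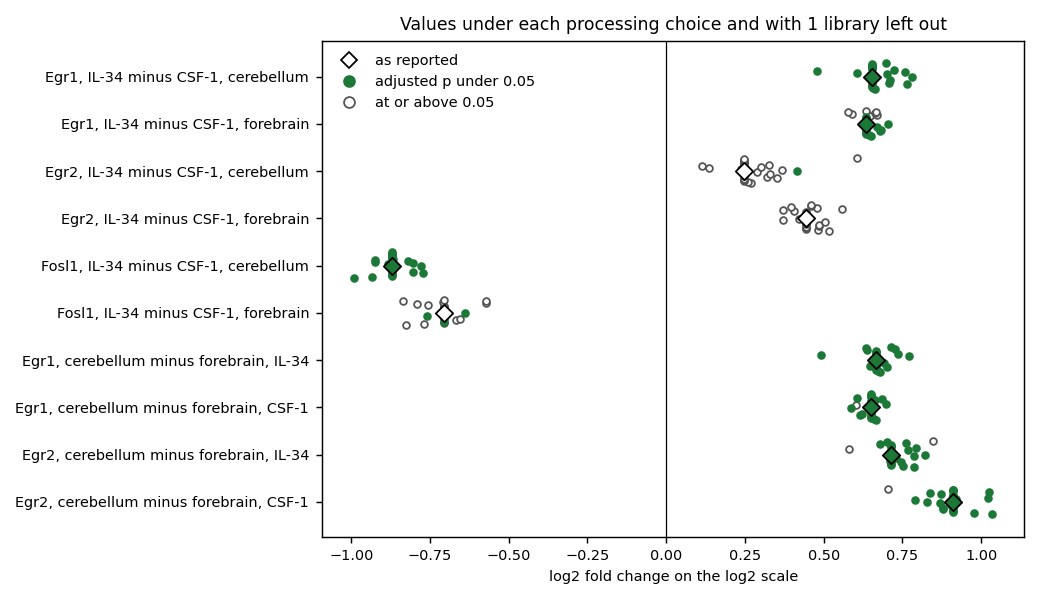
Log2 fold changes (horizontal axis) of Egr1, Egr2 and Fosl1 in the 4 comparisons named on the vertical axis, as reported (diamonds), under each other processing choice and with each library left out in turn (circles). Green marks an adjusted p under 0.05. No value crosses 0, and the Egr1 forebrain ligand difference keeps its size, with left-out fits between 0.58 and 0.67, while losing its call in 9 of 12.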

How the data were processed

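RNA of 12 libraries was read from 1 deposited table, which gives TPM per Ensembl transcript, as made by the authors with kallisto 0.43.0 and GRCm38 per the submitters' processing notes. The labels' protocols name a SMART-Seq v4 Ultra Low Input kit for cDNA. Annotation release, filters and bias correction were not given in the sources used here. An extraction label speaks of human tissue where every other label is mouse. TPM was summed per gene over 115879 transcripts, and positions and lengths come from GENCODE M21, in which 114255 (98.6%) were found. TPM keeps no depth, so counting error cannot be stated, and the error shown is the SD or SE over 3 libraries a group. No pair among 66 held identical values.

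The test was limma 3.58.1 (R 4.3.3) on log2(TPM + 1). It was fitted to 4 group means with a variance trend, for the 12419 genes that reached 1 TPM in 3 or more libraries, over which p-values were adjusted (Benjamini-Hochberg). It is two-sided, and calls are at an adjusted p under 0.05. Adding 1 understates fold changes of low genes. Groups came from the labels. The code was tested on simulated data. Alternatives covered the pseudocount, filter, scaling, variance model, library weights, replicate number as a block, short transcripts, length and GC trends and leaving out each library, and, chosen after seeing the data, the most abundant transcript of each gene.

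The members and gene lists were chosen with earlier results of these data known. All members are named. Of each list the tested genes are counted and up to 5 with the smallest p for the mean ligand or mean region difference are named, and for each tested member the 2 genes of highest r. Genes outside this rule, such as further list members and markers, were named after their values were seen. Values of some single list genes are not reported here.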

Additional observations from a re-analysis of the deposited data

How the results depend on the processing

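All 13 called differences of members kept their direction in 189 values under other settings and in 156 with 1 library left out. Many of these values could not change. Another variance trend or filter, or a left-out library outside the groups compared, leaves a fold change as it was. For Egr1 in forebrain it stayed at 0.64 with no filter, no variance trend or any 1 library of cerebellum with CSF-1 left out. These totals are thus no measure of how secure the calls are. Counts of members and of all genes called changed with the setting, and the cause was not tested. For IL-34 over CSF-1 in forebrain the count was 1 as reported. It was 0 with no filter, no variance trend, only the 2 groups compared or the most abundant transcript. Egr1 then had adjusted p of 0.105, 0.0677, 0.0832 and 0.0708 in turn. The count was 2, with Fosl1 added, with at least 1 TPM in all 12 libraries or with library weights. So it was with transcripts of 1000 nt or more, with or without length and GC trends removed. In cerebellum it was 2 as reported and 1 with only the groups compared (Egr1 adjusted p = 0.0529). It was 3 with median-of-ratios scaling and 4 with trends removed. For the mean of both regions it was 2 as reported, 4 with transcripts of 1000 nt or more, and 3, with Egr2 added, with either scaling, library weights, the 12-library filter or trends removed. For cerebellum over forebrain the count was 2 with each ligand as reported and 1 with each under the most abundant transcript, and with Fos added it was 3 with IL-34 with trends removed and 3 with CSF-1 under quantile normalization, library weights or transcripts of 1000 nt or more. With CSF-1 it was 5 with trends removed (all genes: 833 as reported, 456 to 1804 in other settings). For the mean of both ligands it was 4 as reported and 3 with no filter, the replicate block or the most abundant transcript. With 1 library left out the counts ranged from 0 to 1 for the forebrain ligand difference, 2 to 2 for the cerebellar, 2 to 3 for their mean, 1 to 2 for the region difference with each ligand and 2 to 4 for its mean, and were 0 for the interaction throughout.

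The mean region difference of Fosl2 lost its call with trends removed (adjusted p = 0.0510) and with the most abundant transcript (0.0507). That of Fos just missed the threshold with no filter. The region difference of Fos with CSF-1, not called as reported, was called in 4 of 15 settings.

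Values not called as reported changed sign, most of them near 0 (the cerebellar ligand difference of Fosl2 and the interaction of Egr2 were both -0.20 as reported). With median-of-ratios scaling the cerebellar ligand difference was 0.097 for Fos and 0.099 for Jun, the mean ligand difference 0.061 for Junb and the interaction 0.047 for Fosl2. With quantile normalization the cerebellar ligand difference was 0.024 for Fos and 0.013 for Jun, the mean ligand difference 0.030 for Junb and the mean region difference 0.0027 for Jund. With library weights the mean ligand difference was -0.0088 for Jund, and the mean region difference -0.0011 for Junb and 0.016 for Jund. With length and GC trends removed the cerebellar ligand difference was 0.043 for Fos, 0.00023 for Fosl2 and 0.11 for Jun, the forebrain and mean ligand differences of Junb were 0.012 and 0.054, the interaction of Fosl2 was 0.090, the region difference with IL-34 was -0.024 for Junb and -0.018 for Jund, and the mean region difference of Junb was -0.066. With the most abundant transcript the interaction was 0.039 for Fosl2 and 0.14 for Egr2. With 1 library left out the cerebellar ligand difference ranged from -0.070 to 0.024 for Fos and from -0.056 to 0.059 for Jun, the mean ligand difference from -0.00046 to 0.051 for Fos, from -0.039 to 0.00088 for Junb and from -0.0034 to 0.038 for Jund, the interaction from -0.16 to 0.12 for Egr1 and from -0.091 to 0.077 for Fosl2, the region difference with IL-34 from -0.0017 to 0.14 for Jun, and the mean region difference from -0.014 to 0.024 for Junb and from -0.038 to 0.0057 for Jund.

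The replicate numbers of the labels gave no sign of pairing. Same-numbered libraries of different groups deviated with r between -0.454 and 0.458, over 0.1 in 5 of 18 pairs. Between different numbers r lay from -0.455 to 0.569, over 0.1 in 9 of 36. The highest values joined cerebellum CSF-1 replicate 1, forebrain CSF-1 replicate 3 and forebrain IL-34 replicate 1 (0.569, 0.543 and 0.458). Those libraries had the lowest TPM shares in transcripts under 600 nt (0.0277, 0.0302 and 0.0269%), and the cause was not tested. With the replicate number as a block, 1 call of a member was lost, the mean region difference of Fosl2 (adjusted p = 0.0510). The forebrain ligand count over all genes was then 83 in place of 149. That count ranged from 0 (only the groups compared) to 892 (trends removed), and the cerebellar one from 778 to 2570 in place of 1593, or down to 299 with 1 library left out. Depth is unknown, so whether Fosb and Egr3 differ between groups was not detectable here.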

Other observations

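A pair of short non-coding transcripts of the AP-1 genes had their highest group mean in cerebellum with IL-34, the group with most TPM in short transcripts. Fos-202, a processed transcript of 631 nt, had 35.6, 10.01 and 0 TPM in cerebellum with IL-34, against 0, 8.63 and 2.81 TPM in cerebellum with CSF-1, 0, 1.83 and 2.22 TPM in forebrain with IL-34 and 2.03, 0 and 0 TPM in forebrain with CSF-1. Junb-202, a processed transcript of 492 nt, had 2.90, 1.06 and 0 TPM in cerebellum with IL-34 and was listed at 0 in the other 9 libraries. In the same 3 libraries of cerebellum with IL-34, 2.58, 3.31 and 0.947% of all TPM lay in transcripts shorter than 600 nt. The main transcript Fos-201 had 248, 240 and 260 TPM in cerebellum with IL-34, against 259, 261 and 261 TPM in cerebellum with CSF-1. Longer processed transcripts of Fos did not follow this. Fos-203, of 795 nt, had 3.40, 1.85 and 1.39 TPM in cerebellum with IL-34, against 0, 6.23 and 4.398 TPM in cerebellum with CSF-1, 3.39, 2.72 and 5.02 TPM in forebrain with IL-34 and 1.84, 5.58 and 5.69 TPM in forebrain with CSF-1. Fos-204, of 834 nt, had 0.488, 0 and 1.52 TPM in cerebellum with IL-34, against 0, 10.7 and 0 TPM in cerebellum with CSF-1. Fos-202 and Junb-202 were picked out after their values were seen, and no test was made.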
